A study of Mus musculus with 278 samples.

Results

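The 10 chemokine genes Cxcl1, Cxcl2, Cxcl5, Cxcl12, Cxcl14, Cxcl15, Cxcl16, Cx3cl1, Ccl20 and Ccl28 were followed through single cells of the mouse mammary epithelium. They were taken by name from the 27179 gene IDs counted in each cell, and all 10 were found. The study profiled single cells of the FVB/NJ mouse by RNA-seq to ask how varied the mammary epithelium is and how its lineages relate through development. Cells were captured on Fluidigm C1 chips, which isolate cells in separate chambers and make cDNA from their polyadenylated RNA, and each cell became a sequencing library of its own. The 278 cells analysed here formed 3 groups. Adult basal cells (112), called the basal sort here, came from 10-week-old mice and were sorted as CD29 high and CD24 positive after removal of cells with the endothelial, leukocyte and erythroid markers CD31, CD45 and Ter119. Adult luminal cells (43), the luminal sort, are labelled as adult luminal. Pregnancy cells (123) came from mid-pregnancy and were taken as total epithelium, so stage and sort cannot be told apart in any comparison of pregnancy with an adult group. The labels name no allele, transgene or treatment, and no animals. Comparisons used the 84 adult basal, 41 adult luminal and 96 pregnancy cells with 50000 or more reads in kept genes, 221 in all. Adult basal cell 19, which carried immune markers, was left out.

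Chemokines are small secreted or membrane-bound proteins that bind G protein-coupled receptors on leukocytes and other cells and direct their movement along a gradient. In the CXC subfamily, members with a glutamate-leucine-arginine motif draw neutrophils through Cxcr2, and their genes are classical targets of NF-kB in epithelium exposed to cytokines or bacterial products. Homeostatic members are made without such a stimulus, and the transmembrane members Cxcl16 and Cx3cl1 can act as adhesion molecules until proteases release them. In the mammary gland, chemokines guide the macrophages, eosinophils, neutrophils and antibody-secreting cells that enter the tissue during growth, pregnancy and lactation.

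The genes of 4 members, Cxcl5, Cxcl15, Cxcl1 and Cxcl2, lie in a cluster on chromosome 5 that spans 146641 bases (mm10), and 10777 bases separate the end of Cxcl1 (chr5:90891245-90893121) from the start of Cxcl2 (chr5:90903899-90905938). The 4 sequences that follow are the 100 bases before the transcription start, 5′ to 3′ on the coding strand, from RefSeq on GRCm38.p6, the patched form of the same build. They are shown because, with cells thinned to the same depth, all 17 pregnancy cells that detected Ccl20 also detected Cxcl1 and 16 detected Cxcl2. Cxcl1 was detected in 82 of the 96 pregnancy cells, so most cells with Cxcl1 did not detect Ccl20. Cxcl15, the neighbour of Cxcl1 and Cxcl2, was detected in 3 pregnancy cells, and none of these detected Cxcl1, Cxcl2 or Ccl20. A link between these sequences and the levels was not tested. Capitals mark matches to the NF-kB consensus on either strand. The Cxcl1 stretch lies at chr5:90891145-90891244, that of Cxcl2 at chr5:90903799-90903898, that of Ccl20 at chr1:83116666-83116765 and that of Cxcl15 at chr5:90794434-90794533, all on the plus strand.
Cxcl1: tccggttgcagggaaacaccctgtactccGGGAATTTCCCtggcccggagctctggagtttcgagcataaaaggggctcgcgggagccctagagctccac
Cxcl2: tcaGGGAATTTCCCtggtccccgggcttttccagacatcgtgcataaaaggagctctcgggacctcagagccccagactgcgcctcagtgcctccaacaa
Ccl20: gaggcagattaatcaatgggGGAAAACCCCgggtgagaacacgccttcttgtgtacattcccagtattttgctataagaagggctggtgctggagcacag
Cxcl15: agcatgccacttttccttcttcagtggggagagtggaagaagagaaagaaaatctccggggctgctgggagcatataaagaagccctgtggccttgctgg

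The promoter table (250 bases before to 50 after a start) held 8 of the 10 members, and 3 of these 8 had an NF-kB consensus match, against 8.46% of all 32851 promoters of the same length. In Cxcl1 and Cxcl2 the same 11 letters held overlapping matches on both strands, beginning at position -71 in Cxcl1 and at position -97 in Cxcl2 counted from the start, and in Ccl20 it began at position -80 on the minus strand. The motif TATAAA, searched on both strands, was found in Cxcl15 (position -27) and Cx3cl1 (position -6) and in 13.6% of all promoters. A match is a stretch of letters and not a measured binding site.

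Depth and cell identity set the limits of these data. The median number of reads in kept genes was 373552 in adult basal, 637903 in adult luminal and 215213 in pregnancy cells, so the share of cells with a read was computed after every cell had been thinned to 50000 reads. Of 12 basal and 12 luminal markers, the median adult basal cell detected 11 and 3, the median adult luminal cell 0 and 10, and the median pregnancy cell 10 and 8. With a margin of 4 markers, all 84 adult basal cells leaned basal and 39 of 41 adult luminal cells leaned luminal. Of the pregnancy cells, 40 leaned basal, 28 leaned luminal and 28 lay between, with 24 within 1 marker of the margin. Adult luminal cells 26 and 35 lay between, and cell 35 carried 11 basal markers. By 10 markers each of mature luminal and luminal progenitor cells and a margin of 3, 18 adult luminal cells leaned mature, 8 leaned progenitor and 15 lay between. Other cell types were sought with 3 or more of 8 immune, 6 endothelial or 6 fibroblast markers. None of the 84 adult basal cells used met this, 6 adult luminal cells did (6 by fibroblast and 2 by endothelial markers), and 21 pregnancy cells did (4 immune, 10 endothelial, 10 fibroblast). The summed fibroblast markers of a cell ran from 0 to 3042 CPM in adult basal, to 30572 CPM in adult luminal and to 39788 CPM in pregnancy cells, and the summed immune markers from 0 to 2097, 131.5 and 34694 CPM. In pregnancy no marker of these lists was without reads, whereas 6 of the 8 immune and 4 of the 6 endothelial markers had none in the 84 adult basal cells used. Adult basal cell 19 had been left out for its immune markers, whereas the 4 immune-marked pregnancy cells were kept. The contrast in immune markers was thus partly set by that choice. Each library was a cell and the labels name no animal, so a group is a single sample. Differences between groups therefore carry no test and no replicate check, and all intervals are 95% intervals of counting error only.

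Thinned to the same depth, the median cell detected 2 of the 10 members in adult basal, 2 in adult luminal and 3 in pregnancy cells. No member was detected in 2 adult basal cells and 4 adult luminal cells, whereas every pregnancy cell detected at least 1. Cells with 4 or more members made up 15.5% of the basal sort, 7.32% of the luminal sort and 47.9% of the pregnancy group. Per kilobase of exon, summed over a group, Cxcl1 was the highest of the 10 in adult basal cells at 125.8 RPKM, ahead of Cxcl14 at 84.8 RPKM. Cxcl1 also led in adult luminal cells at 286.6 RPKM, ahead of Cxcl15 at 62.5 RPKM. In pregnancy cells Cxcl1 reached 1411 RPKM and Cxcl2 443.9 RPKM, and the next, Ccl20, 88.9 RPKM.

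**Figure D1:**
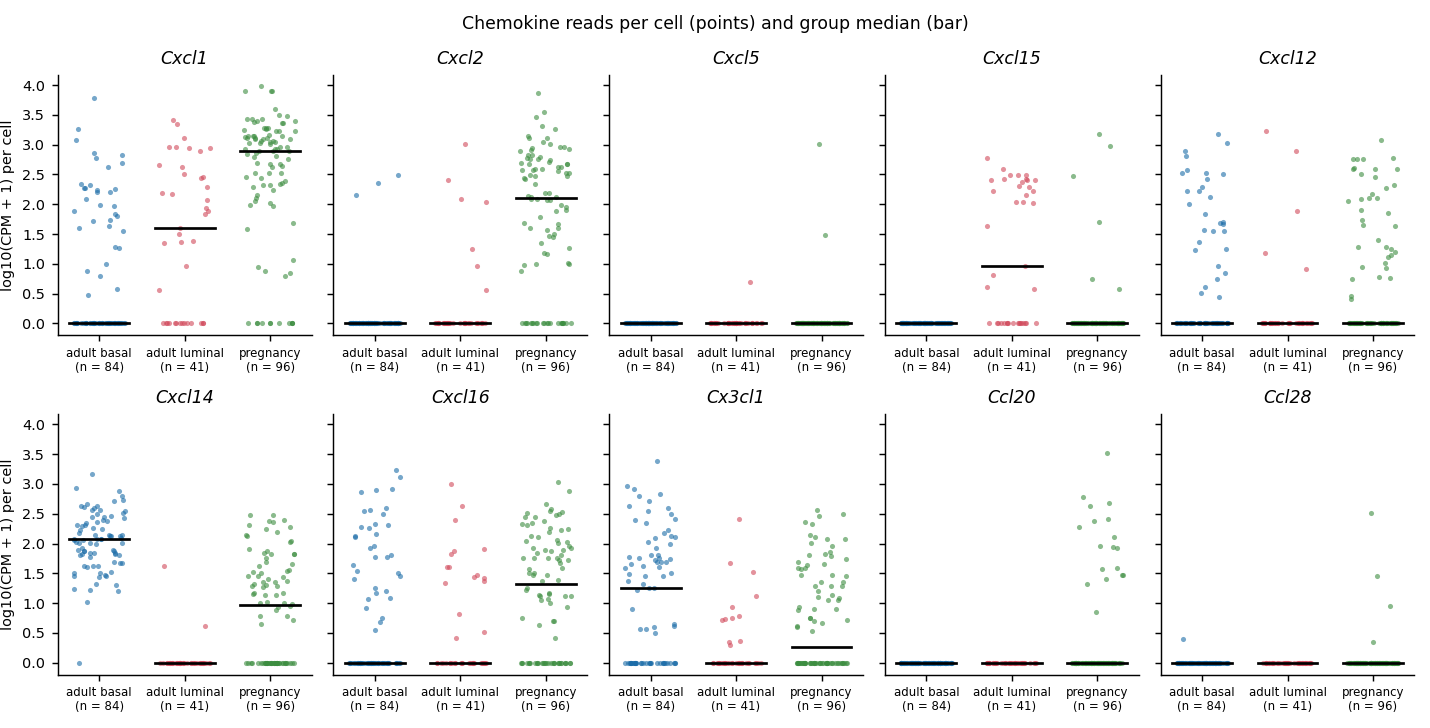
Reads of the 10 chemokine genes in each cell, as log10(CPM + 1), for 84 adult basal, 41 adult luminal and 96 pregnancy cells. Each point is a cell and each bar the group's median, which lies above 0 for Cxcl14 and Cx3cl1 in adult basal cells, for Cxcl1 and Cxcl15 in adult luminal cells, and for Cxcl1, Cxcl2, Cxcl14, Cxcl16 and Cx3cl1 in pregnancy cells.

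A member was called higher in a group where its summed CPM (its reads per 1000000 kept reads of the group) was at least 2-fold that of the other group and more of the thinned cells detected it. Between the adult sorts, 3 of 10 members were higher in luminal cells (Cxcl1, Cxcl2 and Cxcl15) and 3 were lower (Cxcl14, Cxcl16 and Cx3cl1), beside 34.6% of 14278 genes called higher and 17.2% called lower. Against adult luminal cells, 8 of 10 members were higher in pregnancy cells and 1, Cxcl15, was lower, beside 22.3% and 27.4% of 14847 genes. The median log2 ratio of the members was 3.34, with sums of 0 entered at 3 reads, and that of all genes was -0.40. Against adult basal cells, 6 members were higher in pregnancy (Cxcl1, Cxcl2, Cxcl5, Cxcl15, Ccl20 and Ccl28) and 2 were lower (Cxcl14 and Cx3cl1), beside 29.2% and 11.9% of 14816 genes. Both stage comparisons share the pregnancy cells. The Cxcl2 call against the basal sort left out adult basal cell 19 but kept the 4 immune-marked pregnancy cells.

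**Figure D2:**
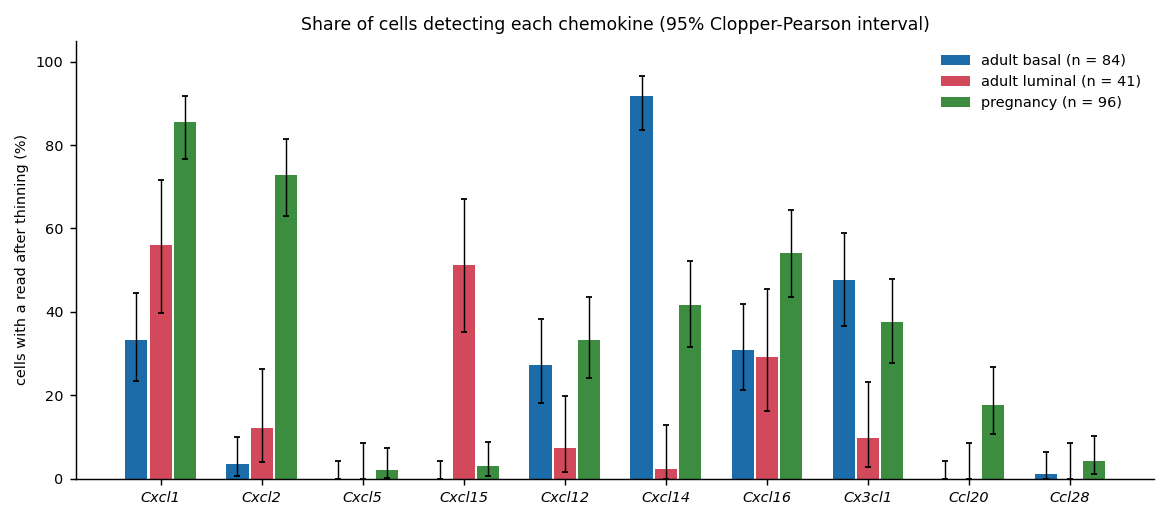
Share of cells with at least 1 read of each chemokine after thinning to 50000 reads, in percent, for the 3 groups, with 95% Clopper-Pearson intervals. Cxcl14 stands at 91.7% in adult basal cells and 2.44% in adult luminal cells, Cxcl15 at 51.2% in adult luminal cells and 0% in adult basal cells, and Cxcl2 at 72.9% in pregnancy cells against 3.57% and 12.2% in the adult sorts.

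Cxcl1 and Cxcl2, paralogous neutrophil attractants, were most abundant in pregnancy. Cxcl1 was detected in 33.3% of the basal sort (interval 23.4 to 44.5), 56.1% of the luminal sort (39.7 to 71.5) and 85.4% of the pregnancy group (76.7 to 91.8). Without thinning the shares were 40.5%, 65.9% and 88.5%. The pregnancy share lay above both adult intervals, while the adult intervals overlapped. Per cell, Cxcl1 ranged from 0 to 6169 CPM with a median of 0 in adult basal cells, from 0 to 2588 CPM with a median of 38.9 in adult luminal cells, and from 0 to 9522 CPM with a median of 788.3 in pregnancy cells. The ranges of the 3 groups overlapped throughout. Summed over cells, Cxcl1 stood at 120.1 CPM in adult basal, 273.7 in adult luminal and 1347 in pregnancy cells. Pregnancy exceeded adult luminal cells by 2.30 on the log2 scale (2.26 to 2.34) and adult basal cells by 3.49 (3.44 to 3.53). The same ratios were 2.54 and 3.72 in pregnancy cells with title numbers up to 55, and 2.13 and 3.32 in those above 55. The luminal sort exceeded the basal sort by 1.19 (1.13 to 1.24), and this smaller difference was not called without luminal cell 26, at 0.95, with TMM scaling, at 0.89, or as a mean of per-cell CPM, at 0.92. The 6 luminal cells with fibroblast markers held 42.5% of the luminal Cxcl1 reads, and without them the adult difference was 0.63. In pregnancy the 21 cells with markers of other types held 36.4% of the Cxcl1 reads, at 2582 CPM against 1058 CPM in the other 75. The part of these cells in the luminal and pregnancy values was not tested.

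Cxcl2 was rare in the adult sorts and common in pregnancy. It was detected in 3 of 84 cells of the basal sort (3.57%, interval 0.743 to 10.1), 5 of 41 cells of the luminal sort (12.2%, 4.08 to 26.2) and 70 of the 96 pregnancy cells (72.9%, 62.9 to 81.5). Without thinning 3, 7 and 74 cells had reads. The adult shares overlapped and the pregnancy share stood far above both. Per cell the highest value was 312.9 CPM in adult basal, 1021 CPM in adult luminal and 7249 CPM in pregnancy cells, and the medians were 0, 0 and 125.9 CPM. Summed, Cxcl2 was 20.8-fold higher in pregnancy than in adult luminal cells (log2 4.38, 4.26 to 4.50) and 51.0-fold higher than in adult basal cells (log2 5.67, 5.51 to 5.83). Without adult luminal cell 15, which held 41.1% of the luminal reads, the former became 5.13 on the log2 scale, and without basal cell 74 the latter became 6.62. In pregnancy cells numbered up to 55 and above 55 the log2 ratio to the luminal sort was 3.95 and 4.59, the former 3.30 without cell 35. The adult luminal to basal ratio of 1.29 (1.10 to 1.49) rested on 574 and 332 reads. It was 0.54, and no longer called, without luminal cell 15, became 2.24 without basal cell 74, and was 0.999, just short of the threshold, with TMM scaling. The 4 pregnancy cells with immune markers held 16.6% of the pregnancy Cxcl2 reads, 10.6% in cell 35 alone, and without them the log2 ratio to adult luminal cells was 4.16. The main ratios kept these cells, whereas adult basal cell 19, also with immune markers, was left out with its 9649 Cxcl2 reads. The ratio of pregnancy to adult basal cells would be far smaller with cell 19 included. Of the 50-base windows of Cxcl2 transcripts, 5.84% also occur in Cxcl3, so a small part of its reads may be assigned with less certainty, and no window of Cxcl1 occurs in another gene.

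Cxcl5, the third neutrophil attractant of the cluster, was almost absent. After thinning, 0 of 84 cells of the basal sort had a read, which allows a share of up to 3.57%, as did 0 of 41 cells of the luminal sort, which allows up to 7.32%, and 2 of the 96 pregnancy cells. Pregnancy cell 42 alone held 99.2% of the 265 reads in pregnancy. That cell detected 8 of the 10 members and carried 3 endothelial markers, and the call of Cxcl5 as higher in pregnancy (log2 6.56, 5.00 to 8.85, against 3 reads in the luminal sort) came from it, since no ratio could be given without it.

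Cxcl15, first described as a lung epithelial chemokine that attracts neutrophils, was called lower in pregnancy than in adult luminal cells, whereas its neighbours were called higher. Between the adult sorts it was higher in luminal cells, as were Cxcl1 and Cxcl2. Of the luminal sort, 21 of 41 cells detected it (51.2%, interval 35.1 to 67.1), against 0 of 84 in the basal sort, where the limit is 3.57%, and 3 of the 96 pregnancy cells (3.12%, 0.649 to 8.86). Unthinned, 24 luminal, 0 basal and 6 pregnancy cells had a read. The luminal cells with reads lay between 2.72 and 608.1 CPM with a median of 197.9. Summed, Cxcl15 stood at 132.9 CPM in adult luminal cells, at least 1560-fold above basal cells, where no read was found. The log2 ratio of pregnancy cells to the luminal sort was -3.83 (-4.03 to -3.63), or -4.87 without pregnancy cell 73, and none of the 45 pregnancy cells numbered up to 55 had a read. Of the cells with markers of other types, 0 of the 21 in pregnancy and 3 of the 6 in the luminal sort detected it, and its share in the other 35 luminal cells was 51.4%.

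Within adult luminal cells Cxcl15 followed the mature subset. It was detected in 15 of 18 mature-leaning cells (83.3%, interval 58.6 to 96.4), in 0 of 8 progenitor-leaning cells, which allows up to 37.5%, and in 6 of 15 cells between. The mature-leaning cells held 216.7 CPM, at least 266.5-fold the level of progenitor-leaning cells. Cxcl1 was the reverse, with 6 of 18 mature-leaning cells (33.3%) at 85.7 CPM and 6 of 8 progenitor-leaning cells (75.0%) at 621 CPM. The log2 ratio of mature- over progenitor-leaning cells for Cxcl1 was -2.86 (-2.97 to -2.75), and it was -2.30 without progenitor-leaning cell 32 and -3.93 without mature-leaning cell 31. The same split held at the level of cells, since Cxcl1 and Cxcl15 were found together in 8 adult luminal cells where 11.8 would be expected from their shares. In this comparison 37.3% of 12031 genes were called higher in mature-leaning cells and 19% lower, and 2 and 5 of the 10 members. Cxcl16 was lower in mature-leaning cells, at 13.1 against 147.2 CPM (log2 -3.49, -3.76 to -3.23). It was -2.51 without progenitor-leaning cell 22 and -5.60 without mature-leaning cell 16, and 3 of 18 against 4 of 8 cells detected it. The calls of Cxcl2, Cxcl12, Cxcl14 and Cx3cl1 between the subsets rested on at most 2 detecting cells a side, and that of Cxcl2 (-1.06) turned to 2.97 without progenitor-leaning cell 33. Of the 41 cells, 14 lay within 1 marker of the margin.

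Cxcl14, a homeostatic chemokine made by many epithelia, was the most evenly spread of the 10 in adult basal cells. It was detected in 77 of 84 cells of the basal sort (91.7%, interval 83.6 to 96.6), 1 of 41 cells of the luminal sort (2.44%, 0.0617 to 12.9) and 40 of the 96 pregnancy cells (41.7%, 31.7 to 52.2). Unthinned, 83 basal, 2 luminal and 55 pregnancy cells had reads. The basal cells with reads lay between 9.56 and 1478 CPM with a median of 117.7, and the top cell held only 5.20% of the reads. The 3 intervals were separate. Summed, Cxcl14 stood at 155.0 CPM in adult basal, 1.29 in adult luminal and 28.3 in pregnancy cells. Adult luminal cells were 120.3-fold lower than basal cells (log2 -6.91, -7.46 to -6.41), and 93.8% of the luminal reads came from cell 35, the cell with 11 basal markers, without which the log2 ratio was -10.87. Pregnancy cells were higher than the luminal sort by 4.46 (3.95 to 5.02), or 8.42 without luminal cell 35, and their log2 ratio to the basal sort was -2.45 (-2.57 to -2.33).

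Cxcl12, the ligand of Cxcr4 and Ackr3 that retains leukocytes and precursor cells, differed less between groups in its sum than in its spread. Detecting cells made up 27.4% of the basal sort (interval 18.2 to 38.2), 7.32% of the luminal sort (1.54 to 19.9) and 33.3% of the pregnancy group (24.0 to 43.7), or 35.7%, 12.2% and 39.6% unthinned. The summed levels were 74.4, 69.8 and 60.3 CPM, and no comparison of the 3 groups was called. In the luminal sort, cell 43, with 3 fibroblast and 5 endothelial markers, held 65.6% of the reads. The 6 luminal cells with fibroblast markers held 99.1%, and none of the other 35 detected Cxcl12 after thinning. Without luminal cell 43 the luminal to basal log2 ratio moved from -0.09 to -1.59, and without all cells carrying 3 or more markers of another type it was -6.61. In pregnancy the 21 marked cells held 76.2% of Cxcl12 reads, and without them the share of detecting cells was 24.0%. The log2 ratio of pregnancy to adult luminal cells then was 4.54 in place of -0.21. The sign of this ratio also turned with TMM scaling, at 0.28, as a mean of per-cell CPM, at 0.25, and with milk genes left out of the totals, at 0.15, and it became 1.29 without luminal cell 43. The adult basal reads came from cells of which none carried 3 markers of another type, and the part of the marked cells in the luminal and pregnancy values was not tested.

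Cx3cl1, or fractalkine, a membrane-anchored ligand for monocytes, macrophages and other cells with Cx3cr1, was a basal transcript in the adult. Reads were found in 40 of 84 cells of the basal sort (47.6%, interval 36.6 to 58.8), 4 of 41 cells of the luminal sort (9.76%, 2.72 to 23.1) and 36 of the 96 pregnancy cells (37.5%, 27.8 to 48.0), or 60.7%, 29.3% and 50.0% unthinned. The basal and pregnancy intervals overlapped and both lay above the luminal share. Per cell Cx3cl1 reached 2466 CPM in adult basal, 255.9 CPM in adult luminal and 366.2 CPM in pregnancy cells, with medians of 16.8, 0 and 1.22 CPM. Adult luminal cells were 7.64-fold lower than basal cells in the sum (log2 -2.93, -3.10 to -2.77), and the ratio was -4.77 without luminal cell 8, which held 73.1% of the luminal reads. Pregnancy cells were above adult luminal cells by 1.15 (0.96 to 1.34). That call was lost without pregnancy cell 67, at 0.90, and grew to 2.98 without luminal cell 8. In cells numbered up to 55 it was 0.24 and in those above 55 it was 1.51, while 35.6% and 39.2% of these cells detected the gene.

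Cxcl16, a transmembrane chemokine that binds Cxcr6 and also acts as a scavenger receptor, was found in all groups. The share of detecting cells was 31.0% in the basal sort (interval 21.3 to 42.0), 29.3% in the luminal sort (16.1 to 45.5) and 54.2% in pregnancy (43.7 to 64.4), or 41.7%, 39.0% and 67.7% unthinned. The adult intervals overlapped almost wholly, and the pregnancy interval overlapped that of the luminal sort but not that of the basal sort. The summed level was 87.0 CPM in adult basal, 32.7 in adult luminal and 99.6 in pregnancy cells. The lower luminal level (log2 -1.41, -1.53 to -1.30) thus came with almost the same share of detecting cells. It was -2.03 without luminal cell 22, it was -0.996, just short of the threshold, as a mean of per-cell CPM, and it was no longer called without the marked cells, at -1.22, because the shares then ran the other way. The difference between pregnancy and adult luminal cells of 1.61 (1.49 to 1.72) was 0.80 as a mean of per-cell CPM. It was 2.23 without luminal cell 22, and 1.34 without the 4 immune-marked cells, which held 18.9% of the pregnancy reads. Cells numbered up to 55 detected it in 71.1% and those above 55 in 39.2%, with log2 ratios to the luminal sort of 2.14 and 1.14, the latter 0.87 without cell 99.

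Ccl20, the ligand of Ccr6 on dendritic cells, B cells and T cell subsets, was read in pregnancy cells alone. No read was found in the 84 and 41 cells of the adult sorts, which allows shares of up to 3.57% and 7.32%, whereas 17 of the 96 pregnancy cells detected it (17.7%, interval 10.7 to 26.8). The 18 pregnancy cells with unthinned reads lay between 6.06 and 3333 CPM with a median of 87.7, and cell 59 held 48.7% of the reads. Summed, Ccl20 stood at 71.3 CPM in pregnancy, at least 589.8-fold the adult luminal level and, without cell 59, at least 8.26 higher on the log2 scale. It was found in both title-number sets, in 5 of 45 and 12 of 51 cells. Ccl28, which attracts antibody-secreting cells to the lactating gland through Ccr10, had reads in 1 of 84 cells of the basal sort, 0 of 41 of the luminal sort and 4 of the 96 pregnancy cells. Its 104 pregnancy reads came to 88.5% from basal-leaning cell 6, so its call as higher in pregnancy (at least 5.21 on the log2 scale, at least 2.12 without that cell) owed most of its size to that cell.

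The unsorted pregnancy cells allowed the lineages to be compared within a stage. Of the 10 members, 4 were higher in luminal-leaning than in basal-leaning pregnancy cells (Cxcl1, Cxcl2, Cxcl15 and Ccl20) and 4 were lower (Cxcl12, Cxcl14, Cx3cl1 and Ccl28), beside 18.8% of 13676 genes called higher and 32.2% called lower. Cxcl1 was detected in 25 of 28 luminal-leaning cells (89.3%, interval 71.8 to 97.7) and 29 of 40 basal-leaning cells (72.5%, 56.1 to 85.4), at 2007 and 554.0 CPM. The log2 ratio was 1.86 (1.80 to 1.91), with 1.63 in cells numbered up to 55 and 2.46 in those above 55. For Cxcl2, 23 of 28 and 22 of 40 cells had reads (82.1% and 55.0%), at 531.9 and 173.8 CPM, a log2 ratio of 1.61 (1.52 to 1.71). This ratio did not hold in both title-number sets. It was -0.30 up to 55, where 90.9% of luminal-leaning and 50.0% of basal-leaning cells still detected the gene, and 2.76 above 55. Basal-leaning cells 13, 32 and 41, all numbered up to 55, carried immune markers. Without cell 41 the earlier ratio was 0.44, without cell 67 the later one was 3.77, and without all immune-marked cells the pooled ratio was 2.75.

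Ccl20 showed the steepest luminal excess in pregnancy. It was found in 11 of 28 luminal-leaning cells (39.3%, interval 21.5 to 59.4), 4 of 28 cells between and 2 of 40 basal-leaning cells (5.00%, 0.611 to 16.9), and the first and last intervals were separate. The sums were 201.3 and 1.21 CPM, a log2 ratio of 7.38 (6.40 to 8.59) on 1360 and 8 reads. It was 6.14 without luminal-leaning cell 59 and 10.32 without basal-leaning cell 4. By title number it was 2.71 up to 55, on 33 and 7 reads, and 9.99 above 55, on 1327 reads and 1 read. Among members with reads on both sides, Cxcl14 had the lowest ratio. It was found in 27 of 40 basal-leaning cells (67.5%, 50.9 to 81.4) and 0 of 28 luminal-leaning cells, which allows up to 10.7%, at 71.8 and 0.30 CPM. The log2 ratio was -7.92 (-10.97 to -6.06) on 2 luminal-leaning reads, and the cells between the lineages were intermediate at 46.4% and 18.3 CPM. The adult and the pregnancy comparison share no cells, and Cxcl14 was the member with the lowest ratio among those with reads on both sides in each.

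**Figure D3:**
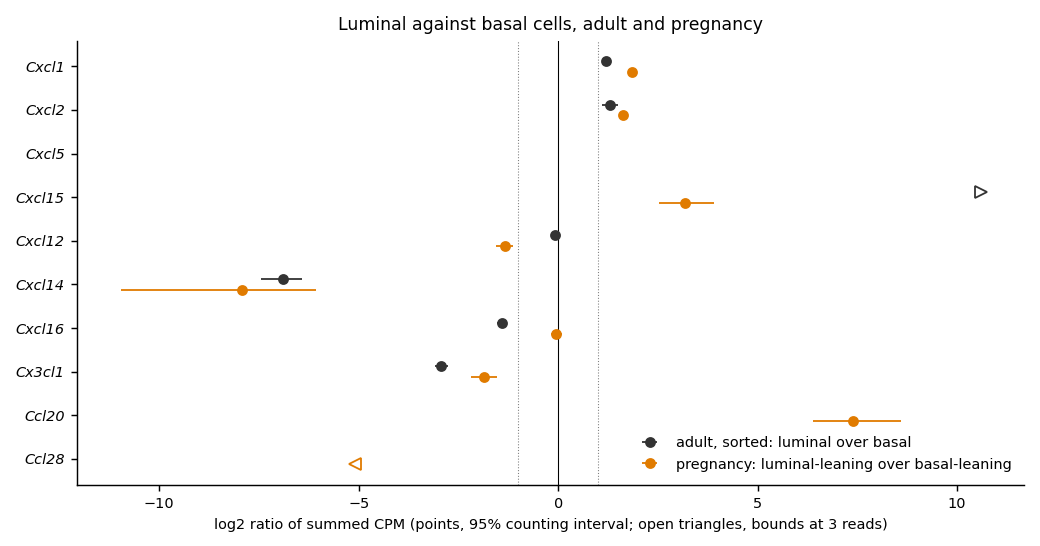
Log2 ratio of summed CPM of each chemokine, luminal over basal, in the sorted adult cells (dark) and between luminal-leaning and basal-leaning pregnancy cells (orange). Bars are 95% counting intervals, open triangles are bounds set at 3 reads, dotted lines mark 2-fold, and a gene without a symbol had 3 or fewer reads on both sides. Cxcl14 lies at -6.91 and -7.92, Cx3cl1 at -2.93 and -1.86, and Cxcl1 at 1.19 and 1.86.

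The remaining members gave smaller or less stable lineage differences in pregnancy. Cx3cl1 was found in 18 of 40 basal-leaning and 7 of 28 luminal-leaning cells (45.0% and 25.0%), with overlapping intervals, at 55.9 and 15.4 CPM (log2 -1.86, -2.19 to -1.54), and the ratio was -1.65 in the earlier and -2.16 in the later numbers. A second random thinning gave 14 of 40 and 10 of 28 cells. The share was then no longer lower in luminal-leaning cells, so the call was lost. Without basal-leaning cell 67 the ratio was -1.37. Cxcl12 was found in 15 of 40 and 8 of 28 cells, at 98.4 and 38.9 CPM (log2 -1.34, -1.55 to -1.13). It was -0.89, short of the threshold, without basal-leaning cell 55, -2.37 without luminal-leaning cell 68 and -0.95 with TMM scaling. Cxcl16 was found in 15 of 40 basal-leaning and 18 of 28 luminal-leaning cells (37.5% and 64.3%), yet the sums were 118.3 and 114.7 CPM (log2 -0.04, -0.19 to 0.10). The basal-leaning reads thus lay in fewer cells, and cell 13, with 7 of 8 immune markers, held 35.1% of the basal-leaning reads, without which the ratio was 0.52. Ccl28 had reads in 2 basal-leaning and 0 luminal-leaning cells, a log2 ratio of at most -5.10, or at most -1.68 without cell 6. Cxcl5 had no ratio.

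Cxcl15 in pregnancy was again tied to mature luminal markers. All 3 pregnancy cells that detected it after thinning (cells 70, 73 and 112) leaned luminal and were the 3 luminal-leaning cells that leaned mature, with 7 or 8 of 10 mature and 2 of 10 progenitor markers. They held 963.6, 1524 and 296.6 CPM of Cxcl15 and no read of Cxcl1, Cxcl2 or Ccl20. The other 25 luminal-leaning cells leaned progenitor, and of these 25 detected Cxcl1, 23 Cxcl2, 11 Ccl20 and 0 Cxcl15. The mature-leaning cells were few and shallow, at 53967 to 101131 reads. The luminal over basal log2 ratio of Cxcl15 in pregnancy, 3.18 (2.53 to 3.91), was 1.97 without cell 73 and at least 5.90 without basal-leaning cell 98, which held all 21 basal-leaning reads.

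**Figure D4:**
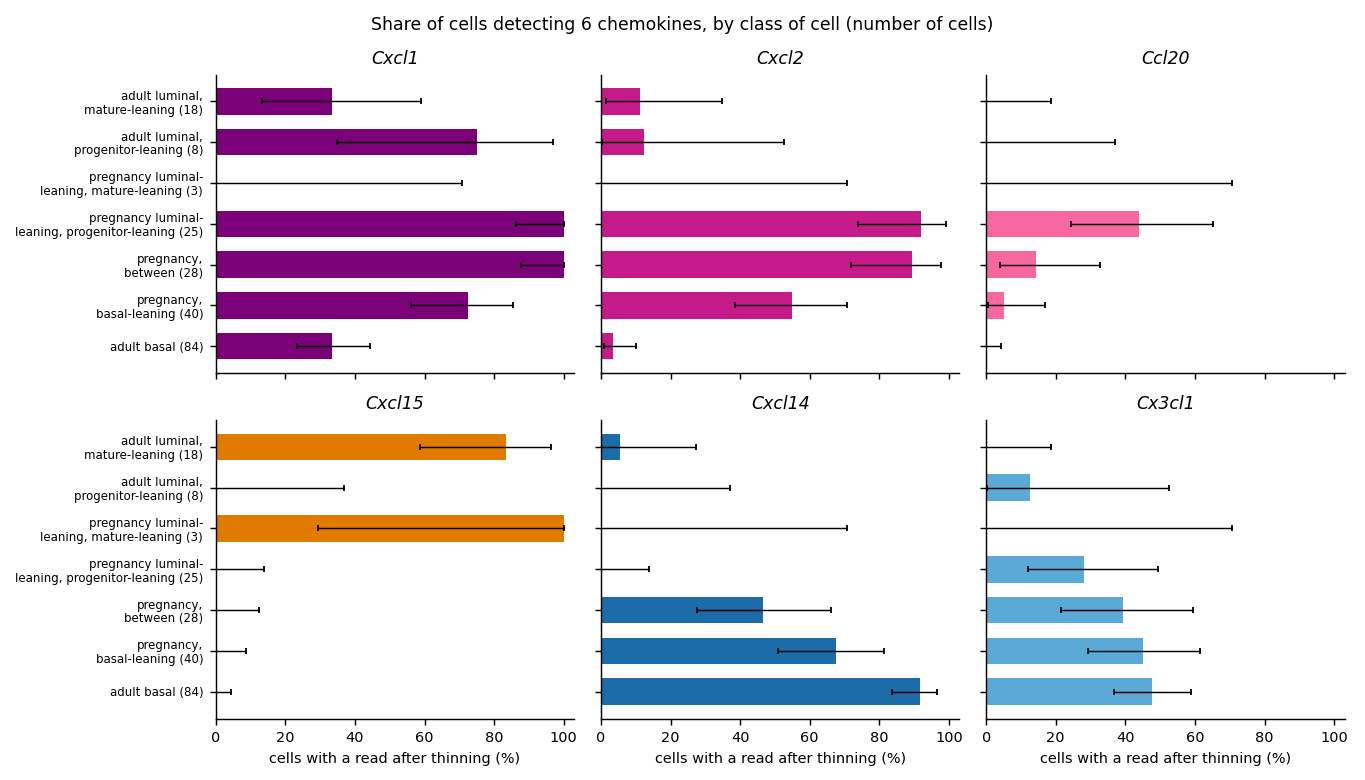
Share of cells detecting 6 chemokines after thinning to 50000 reads, in percent with 95% Clopper-Pearson intervals, in 7 classes of cells whose numbers stand in parentheses. Cxcl15 was detected in 15 of 18 and 3 of 3 cells of the mature-leaning classes, whereas Cxcl1 was detected in 25 of 25 progenitor-leaning and 0 of 3 mature-leaning luminal cells of pregnancy, and Cxcl14 fell from 91.7% of adult basal cells to 67.5% of basal-leaning and 0% of luminal-leaning pregnancy cells.

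Classes leaning to the same lineage were then compared across stages. Basal-leaning pregnancy cells exceeded adult basal cells in Cxcl1 by 2.21 on the log2 scale (2.14 to 2.27) and in Cxcl2 18.4-fold, and 72.5% against 33.3% and 55.0% against 3.57% of cells detected them. Without pregnancy cell 50 the log2 ratio of Cxcl1 was 1.84, and without basal cell 74 that of Cxcl2 was 5.15. Of the 1150 Cxcl2 reads of these 40 pregnancy cells, 664 lay in 3 cells with immune markers, and without those cells the ratios were 8.37-fold for Cxcl2 and 2.16 on the log2 scale for Cxcl1. Cxcl14 was lower in the basal-leaning pregnancy cells, at -1.11 (-1.25 to -0.98), with 67.5% against 91.7% of cells and separate intervals in the thinning used. A second random thinning brought these shares closer, at 31 of 40 and 76 of 84 cells. Cx3cl1 and Cxcl16 had log2 ratios of -0.91 and 0.44 in this comparison and were not called, though Cx3cl1 passed 2-fold, at -1.40, without basal-leaning cell 67. In all, 4 members were higher and 1 was lower, beside 27.6% and 12.5% of 14019 genes. The Ccl20 call rested on 8 reads, 7 of them in basal-leaning cell 4, and no ratio could be formed without that cell. Luminal-leaning pregnancy cells exceeded adult luminal cells in Cxcl1 (2.87, 2.83 to 2.92), Cxcl2 (4.52, 4.40 to 4.65), Cxcl16 (1.81, 1.67 to 1.95) and Ccl20 (at least 10.70), and were lower in Cxcl14 and Cxcl15 (-2.20), beside 14% of 13800 genes called higher and 34.1% called lower. Without luminal cells 15 and 22 the ratios of Cxcl2 and Cxcl16 were 5.27 and 2.43, and without pregnancy cell 59 that of Ccl20 was at least 9.46. The Cxcl14 ratio rested on 2 and 32 reads, of which luminal cell 35 held 30, and could not be formed without that cell. Without pregnancy cell 73 the Cxcl15 ratio was -3.42. Since 25 of these 28 pregnancy cells leaned progenitor, all 28 were also set beside the 8 progenitor-leaning adult cells. There 6 of 10 members were higher (Cxcl1, Cxcl2, Cxcl12, Cxcl15, Cx3cl1 and Ccl20) and 0 were lower, beside 33.9% of 12265 genes called higher and 21% called lower. Cxcl1 was higher by 1.69 (1.63 to 1.76) and Cxcl2 by 4.22 (3.94 to 4.52), and Cxcl16 was not called (-0.36). The Cxcl12 ratio of 1.19 was 0.16 without pregnancy cell 68, and that of Cx3cl1 rested on 104 and 12 reads. Cxcl15 was detected in the 3 mature-leaning and 0 of the 25 progenitor-leaning pregnancy cells. Without adult cell 33, which held 95.2% of the progenitor-leaning Cxcl2 reads, the Cxcl2 ratio was 8.25, and without adult cell 22 the Cxcl16 ratio was 0.62.

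The pregnancy cells were also compared by title number, a division that comes from earlier work on these cells and that no label explains. Milk genes took 8.89% of the reads of the 45 cells numbered up to 55 and 31.4% of those of the 51 above 55, and 23 and 3 cells detected 3 or more cycling markers. Cxcl1 was detected in 86.7% and 84.3% of these cells and Cxcl2 in 73.3% and 72.5%. Between the sets 3 members were higher above 55 (Cxcl15, Cx3cl1 and Ccl20) and 4 were lower (Cxcl5, Cxcl12, Cxcl16 and Ccl28), beside 7.34% and 40.5% of 14273 genes. Against the luminal sort, 7 members were higher and 1, Cxcl15, was lower in each set, beside 25.3% and 20.1% of genes up to 55 and 15.2% and 42.3% above 55. Against the basal sort, 5 were higher and 2, Cxcl14 and Cx3cl1, were lower in each, beside 32.1% and 8.88% up to 55 and 20.9% and 24.2% above 55. Between luminal- and basal-leaning cells, 2 members were higher and 3 lower up to 55, beside 22.9% and 24.3% of genes, and 4 and 3 above 55, beside 23.9% and 33.5%. Cxcl1 and Ccl20 were higher, and Cxcl14, Cx3cl1 and Ccl28 lower, in luminal-leaning cells of both sets. For Cx3cl1 above 55 a second random thinning gave 7 of 18 basal-leaning and 7 of 17 luminal-leaning cells, and that call was lost. In each set a single basal-leaning cell held the Ccl28 reads, 92 in cell 6 and 9 in cell 67, and no ratio could be formed without it.

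Cxcl2 and Cxcl1 varied together among pregnancy cells. Both were detected in 65 of 96 cells where 59.8 would be expected from their shares, and their Spearman correlation was 0.61 over the 96 cells, the highest of the 5855 genes compared with Cxcl1. It was 0.47 in cells numbered up to 55 and 0.76 in those above 55, and 0.57 within luminal-leaning and 0.33 within basal-leaning cells. The next genes for Cxcl1 were Lpl, lipoprotein lipase (0.53), and Cd14, the lipopolysaccharide co-receptor (0.52). For Cxcl2 they were Cd14 (0.71) and Cel, a milk lipase (0.57). Cd14 is also among the progenitor markers that set the subsets. All 17 cells that detected Ccl20 detected Cxcl1 and 16 of them Cxcl2, where 14.5 and 12.4 would be expected. The points of these correlations are cells that share library preparation, lineage and milk content, so they are descriptions.

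The same cells carried milk transcripts. The 8 milk protein genes took 22.8% of the pregnancy reads, 28.2% in luminal-leaning and 6.37% in basal-leaning cells, against 1.25% in adult luminal cells. The milk percent of a cell correlated with its Cxcl2 level at 0.57 over the 96 cells, 0.67 over the 28 luminal-leaning and 0.37 over the 40 basal-leaning cells. For Cxcl1 these values were 0.40, 0.35 and 0.01, and for Ccl20 0.40 over all pregnancy cells. For Cxcl12 and Cxcl14 the value over all pregnancy cells was -0.30 and -0.29, and within basal-leaning cells it was -0.04 and 0.08. These correlations were not computed within the title-number sets, which differed in both quantities. Luminal-leaning cells held 14.0% milk reads and 200.7 CPM of Cxcl2 up to 55, and 35.7% and 705.8 CPM above 55. The 3 mature-leaning cells among them held 0.72% milk reads and no Cxcl2 read. With milk genes left out of the totals, the log2 ratio of pregnancy to adult luminal cells was 2.65 for Cxcl1 and 4.73 for Cxcl2.

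**Figure D5:**
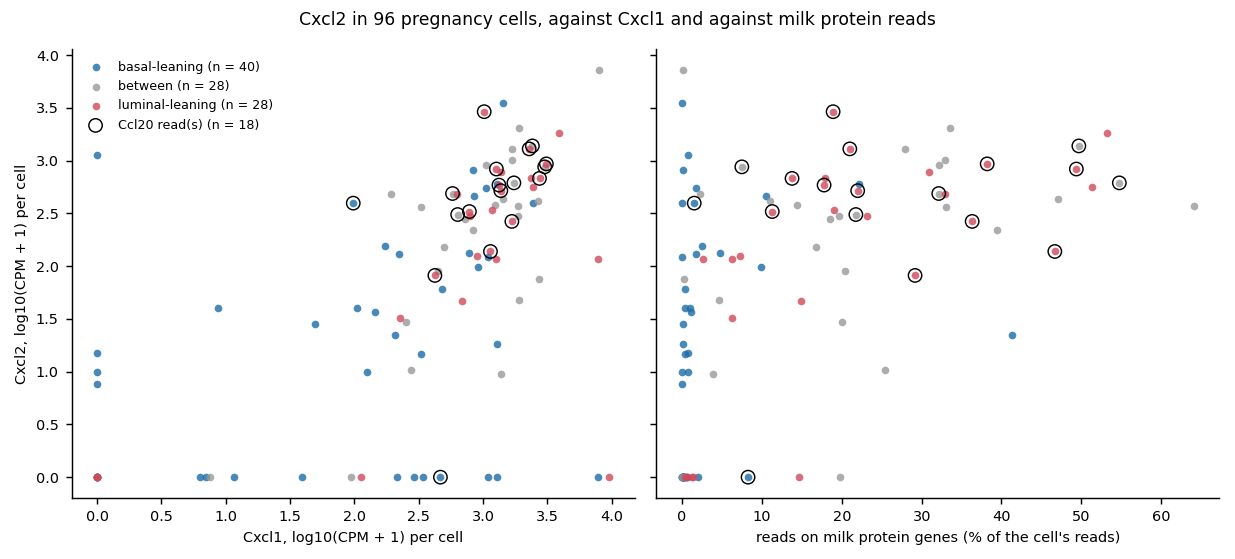
Cxcl2 level of the 96 pregnancy cells as log10(CPM + 1), against Cxcl1 on the same scale (left) and against the percent of the cell's reads on 8 milk protein genes (right). Points are cells coloured by lineage leaning, and open rings mark the 18 cells with Ccl20 reads. The Spearman correlations are 0.61 and 0.57, and the ringed cells lie mostly at high Cxcl1 and Cxcl2.

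Cxcl15 in the 41 adult luminal cells was most like Trp53inp2 (0.67), Cttn (0.66) and Pi4ka (0.64), among 5766 genes compared. Cxcl12 in pregnancy was most like Ly6c1 (0.52), an endothelial and leukocyte surface antigen, Plod1 (0.51), a collagen lysyl hydroxylase, and C1s1 (0.50), a complement protease. Cx3cl1 in adult basal cells reached 0.51 with Ptgfrn, and for Cxcl14 and Cxcl16 no gene reached 0.5. Between members, no pair in adult basal cells exceeded a correlation of 0.27, that of Cxcl16 with Cx3cl1, which were detected together in 17 cells where 12.4 would be expected.

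Most chemokine receptors were detected in few of the same cells. Of 23 chemokine receptor genes, 22 were detected in under 20% of the cells of every group, and 6 had no read in any cell used. The exception was Ackr3, the atypical receptor that binds and removes Cxcl12, detected in 36.9% of the basal sort, 9.76% of the luminal sort and 41.7% of the pregnancy cells. In pregnancy 60.0% of basal-leaning and 10.7% of luminal-leaning cells detected it, so that its shares stood in the same order as those of its ligand. Its summed level did not follow this order, with 157.8 CPM in basal-leaning and 176.0 CPM in luminal-leaning cells, of which 3 detected it. By summed level in pregnancy, Ackr1 stood at 136.9 CPM beside 128.4 CPM for Ackr3, but only 7 pregnancy cells (7.29%) detected Ackr1. Of 27 other chemokine genes, 25 were under 20% in every group. The exceptions, Ccl2 and Ccl7, ligands of Ccr2 on monocytes, were detected in 55.2% and 29.2% of pregnancy cells. The 6 adult luminal cells with fibroblast markers held 99.3% and 100% of the adult luminal reads of Ccl2 and Ccl7, and the 10 such pregnancy cells 63.3% and 70.1%. Against adult luminal cells, 15 of 17 other chemokines with a ratio were higher in pregnancy and 2 were lower, beside 22.3% and 27.4% of all genes. By title number, 14 of 17 were higher and 2 lower up to 55, beside 25.3% and 20.1% of genes, and 2 of 11 were higher and 3 lower above 55, beside 15.2% and 42.3%. Of those higher in pregnancy, Ccl5, Ccl6 and Ccl8 were detected in 3 pregnancy cells each, Cxcl11 in 4, and Ccl4 and Cxcl13 in 5. Cxcl9 was detected in 15 and Cxcl10 in 19. The part of cells with immune or other markers in these calls was not tested.

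Among 5 proteases that cut chemokines, Adam10, the sheddase of Cxcl16 and Cx3cl1, was detected in 75.6% of adult luminal and 5.95% of adult basal cells, a log2 ratio of 4.25 (4.07 to 4.43). Its high group was the adult sort in which Cx3cl1 was low, whereas Cxcl16 was detected in 29.3% of the luminal and 31.0% of the basal sort. A link between the sheddase and either ligand was not tested. Adam17, the inducible sheddase of Cxcl16 and Cx3cl1, was found in 41.5% of adult luminal and 16.7% of adult basal cells. Mmp2, which trims Cxcl12, was found in 41.7% of adult basal and 12.2% of adult luminal cells. In pregnancy 35.4% of cells detected Adam10 and 51.0% Mmp2, and the log2 ratio of Adam10 to the luminal sort was -2.25 (-2.37 to -2.14).

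Of 21 genes of the NF-kB pathway and the cytokines that feed it, 12 were higher and 2 lower in pregnancy than in adult luminal cells, with a median log2 ratio of 1.26 beside -0.40 for all genes, of which 22.3% were called higher and 27.4% lower. By title number, 13 were higher and 1 lower up to 55, with a median of 1.76 beside -0.09 for all genes, and above 55 6 were higher and 5 lower of 20 with a ratio, with a median of 0.51 beside -0.89. Among those named by their detection, Icam1, an adhesion molecule, was higher by 2.76 (2.68 to 2.84) and Nfkb1, which encodes an NF-kB subunit, by 1.78 (1.69 to 1.87). Csf1, the macrophage growth factor, was higher by 3.59 in cells numbered up to 55 and not called, at 0.35, in those above 55. Nfkbiz, a co-activator of secondary NF-kB targets, stood at the threshold, with 1.09 up to 55 and 0.94, not called, above 55. Nfkbia, which encodes the inhibitor of NF-kB, was not called at -0.76 and Rela not at -0.49. The 2 lower genes were Bcl3, at 25.9 CPM in pregnancy and 53.0 CPM in adult luminal cells, and Il17re, at 6.47 and 61.4 CPM. Of those higher in pregnancy, Il1a and Il1b were detected in 4 pregnancy cells each. The part of cells with immune or other markers in the calls of this list was not tested. Against adult basal cells 8 were higher and 1 lower, beside 29.2% and 11.9% of genes. By title number, 9 of 21 were higher and 1 lower up to 55, beside 32.1% and 8.88% of genes. Above 55, 5 of 20 were higher and 4 lower, beside 20.9% and 24.2%. In the adult, Icam1 was lower in the luminal sort than in the basal sort, with a log2 ratio of -3.69 (-3.77 to -3.62). In the luminal sort 5 of 19 genes of the list with a ratio were higher and 4 lower, beside 34.6% and 17.2% of all genes.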

How the data were processed

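Single-cell RNA-seq counts of 278 mouse mammary cells were reanalysed. The authors mapped read pairs to mm10 with Subread (version 1.4.6 in the submitters' processing notes) and assigned them to genes with featureCounts and the RefSeq annotation of Rsubread, and cells had been viewed under a microscope before cDNA was made. Per cell, the authors deposited unnormalised counts of read pairs ("reads") for each Entrez gene, made without molecular identifiers, and a Length column in bases, another unit, that the authors' counting tool wrote and that was used for RPKM. A table of the whole series was not used.

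Symbols were matched through the RefSeq gene table of GRCm38.p6. Left out were 15 mitochondrial genes (9.54% of all reads), 123 genes and pseudogenes of ribosomal proteins (1.71%) and the 1904 IDs that matched no symbol (1.20%), so that 25137 of 27179 IDs remained, and 15291 reached 1 CPM in 3 or more cells, all 10 chemokines among them. Cells needed 50000 reads. No doublet caller was run, and cells with markers of both lineages were kept as "between".

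Shares used cells thinned without replacement to 50000 reads, and a second random thinning was run beside the one used. Shares have Clopper-Pearson, sums Poisson and ratios exact conditional 95% intervals, and reads amplified by PCR are not independent molecules. The limit that a share of 0 allows was set apart from these, as 3 divided by the number of cells. The upper Clopper-Pearson bounds are 4.30% for 84, 8.60% for 41 and 12.3% for 28 cells. A sum of 0 entered ratios at 3 reads over the group, and no ratio was given where both sums were 3 or fewer. Ratios were called at 2-fold with the detecting share in the same direction. Classes of cells came from marker lists that hold no chemokine. The members and lists were chosen with earlier results of these data known. Of the receptor, chemokine, protease and NF-kB lists, genes detected in 20% or more of a group's cells were named, at most 10 a list. For members in 30% or more of a group's cells, the 3 genes with the highest Spearman correlation were named where it was 0.5 or more. Python 3.11.15 (numpy 2.4.6, scipy 1.17.1, pandas 2.3.3) was used, with edgeR 4.0.16 in R 4.3.3 for TMM factors only. The ratios and calls were tested on simulated data. Alternatives were another scaling, per-cell means, other depth minimums, detection thresholds, marker margins and folds, and cells left out. Leaving out cells with markers of other types was added after seeing the data.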

Additional observations from a re-analysis of the deposited data

Results flagged for a closer look

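Some chemokine reads lay in cells that no comparison used. Adult basal cell 19, which was left out because it carried immune markers, held 833 reads of Cxcl1, 9649 of Cxcl2 and 536 of Cxcl16, or 1619, 18752 and 1042 CPM, and no read of the other 7 members. Its Cxcl2 reads exceeded the 332 of the 84 adult basal cells used. Cells with fewer than 50000 reads also held reads of the 10 members, with 165 reads in 27 adult basal cells, 7 in 2 adult luminal cells and 593 in 27 pregnancy cells. In the shallow pregnancy cells the summed levels of Cxcl1 and Cxcl2 were 739.0 and 481.1 CPM.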

How the results depend on the processing

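Of the recomputed counts of members, 67 stayed within 1.5 times the main count and 5 did not. The 3 members higher in adult luminal than in adult basal cells became 1 (Cxcl15) with TMM scaling, with adult basal cell 19 included, and at 4-fold. The 4 members higher and the 4 lower in luminal-leaning than in basal-leaning pregnancy cells became 2 and 2 at 4-fold. With cell 19 included, the Cxcl2 ratio of adult luminal over basal cells turned to -3.60 on the log2 scale, since that cell held 9649 Cxcl2 reads against 332 in the other 84 basal cells. TMM scaling shifted all log2 ratios by -0.29 (adult luminal over basal), 0.49 (pregnancy over adult luminal) and 0.39 (luminal- over basal-leaning). Of the recomputed ratios and shares of single genes, 383 stayed within their counting interval, 170 moved beyond it without a called value changing sign, and 1 reversed, the Cxcl2 ratio above. Without cells carrying immune, endothelial or fibroblast markers, the adult luminal calls were Cxcl2 and Cxcl15 higher and Cxcl12, Cxcl14 and Cx3cl1 lower, and 8 members were higher in pregnancy than in adult luminal cells, with Cxcl12 in place of Cxcl5.

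No paired analysis was possible because the cell numbers that the groups share only name cells, and no result comes from a test. The depth of 50000 reads limits shares to genes above about that of a read per cell, and a share of 0 among 8 or 3 cells allows a wide range. With no animal named, animal, chip and stage cannot be told apart, and an interval of counting error does not cover them. The promoter letters come from the reference strain and not from FVB/NJ.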
